A study of Mus musculus with 6 samples.

Results

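Genes that mark the oligodendrocyte lineage, the glial lineage that makes myelin, were followed in mouse stem-like medulloblastoma cells that carried a CRISPR guide against the long noncoding RNA Miat or a control guide. The 9 genes were Olig1, Olig2, Nkx2-2, Pdgfra, Cspg4, Gpr17, Bcas1, Cnp and Mbp, chosen by symbol as well-known markers of the lineage, out of 24063 symbols in the files. Each of the 9 symbols was present in the files. RNA-seq counts were available for 6 libraries in 3 guide groups of 2 libraries: sgGal4-4 (labelled wild type, and named for a yeast protein), sgMiat-6 and sgMiat-96 (both labelled as Miat knockdown). All 3 groups came from cerebellum and shared the genotype Math1-Cre; SmoM2, in which the Math1 promoter drives Cre recombinase in granule neuron progenitors and Cre turns on SmoM2, a constantly active Smoothened that keeps Hedgehog signalling on. The age of the animals, the number of clones and whether the 2 libraries of a group came from separate cultures are not given in the labels, so the p-values below measure only the spread between these libraries, which may be technical.

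In the developing brain, oligodendrocytes arise from neural progenitors that switch on the basic helix-loop-helix factors Olig1 and Olig2. Progenitors that take this path become precursor cells with the growth factor receptor Pdgfra and the proteoglycan Cspg4 (NG2) on their surface, and then pass through a committed stage marked by Gpr17 and Bcas1 before they make the myelin proteins Cnp and Mbp. Nkx2-2 is a homeodomain factor that promotes the step from precursor to oligodendrocyte. Olig2 is also made by stem and progenitor cells outside this lineage, Cspg4 by pericytes and Pdgfra by fibroblasts, so none of these genes alone defines an oligodendrocyte.

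The libraries held between 18438891 and 19650274 counts after 1 transcript row was kept per symbol. The targeted RNA, Miat, was counted 140 and 139 times with sgGal4-4 and was at 0 in all 4 libraries of the Miat guides. Levels are given in CPM (counts relative to the TMM-scaled library total), as mean ± SD over 2 libraries. A gene was called changed at an adjusted p under 0.05 in edgeR's quasi-likelihood test with Benjamini-Hochberg adjustment over the 13220 genes tested. The markers of the labelled cell identity were mixed in the control. Of the stem cell markers, Nes and Sox2 had 1126 and 218 CPM, while Fut4 was at 0 counts in all libraries and Prom1 had 1 count in all. Of the granule neuron lineage markers, Ptch1 (77.9 CPM), Zic1 (50.7 CPM), Pax6 (31.6 CPM) and Gli2 (30.6 CPM) were expressed, while Atoh1, whose promoter (Math1) drives the Cre, had 0 counts in all 6 libraries. Gli1, Zic2 and Mycn were lower, at 16, 15.4 and 11.2 CPM, and Neurod1 had 1.71 CPM. Barhl1, Cntn2 and Rbfox3 were near 0, with 4, 9 and 1 counts in the control libraries together.

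The 9 genes did not move as a block. Olig1, Olig2, Pdgfra and Bcas1 were higher with the Miat guides, Cspg4 and Cnp were lower, and Nkx2-2, Gpr17 and Mbp were at or near 0 counts throughout. In the comparison of both Miat guides with sgGal4-4, 6 of the 9 genes passed the filter on low counts, and 4 of these 6 were called higher and 2 lower. That comparison called 66.5% of all tested genes, 33.1% higher and 33.4% lower, so a call alone was the usual outcome for a tested gene. A called change of at least 2-fold was seen for 5 of the 6 genes and for 25.1% of all tested genes. The median log2 fold change was 0.92 over the 6 genes and 0 over all tested genes. Pdgfra reached the test only through its level in the Miat libraries, so these counts describe the tested genes and support no statement on the set.

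**Figure D1:**
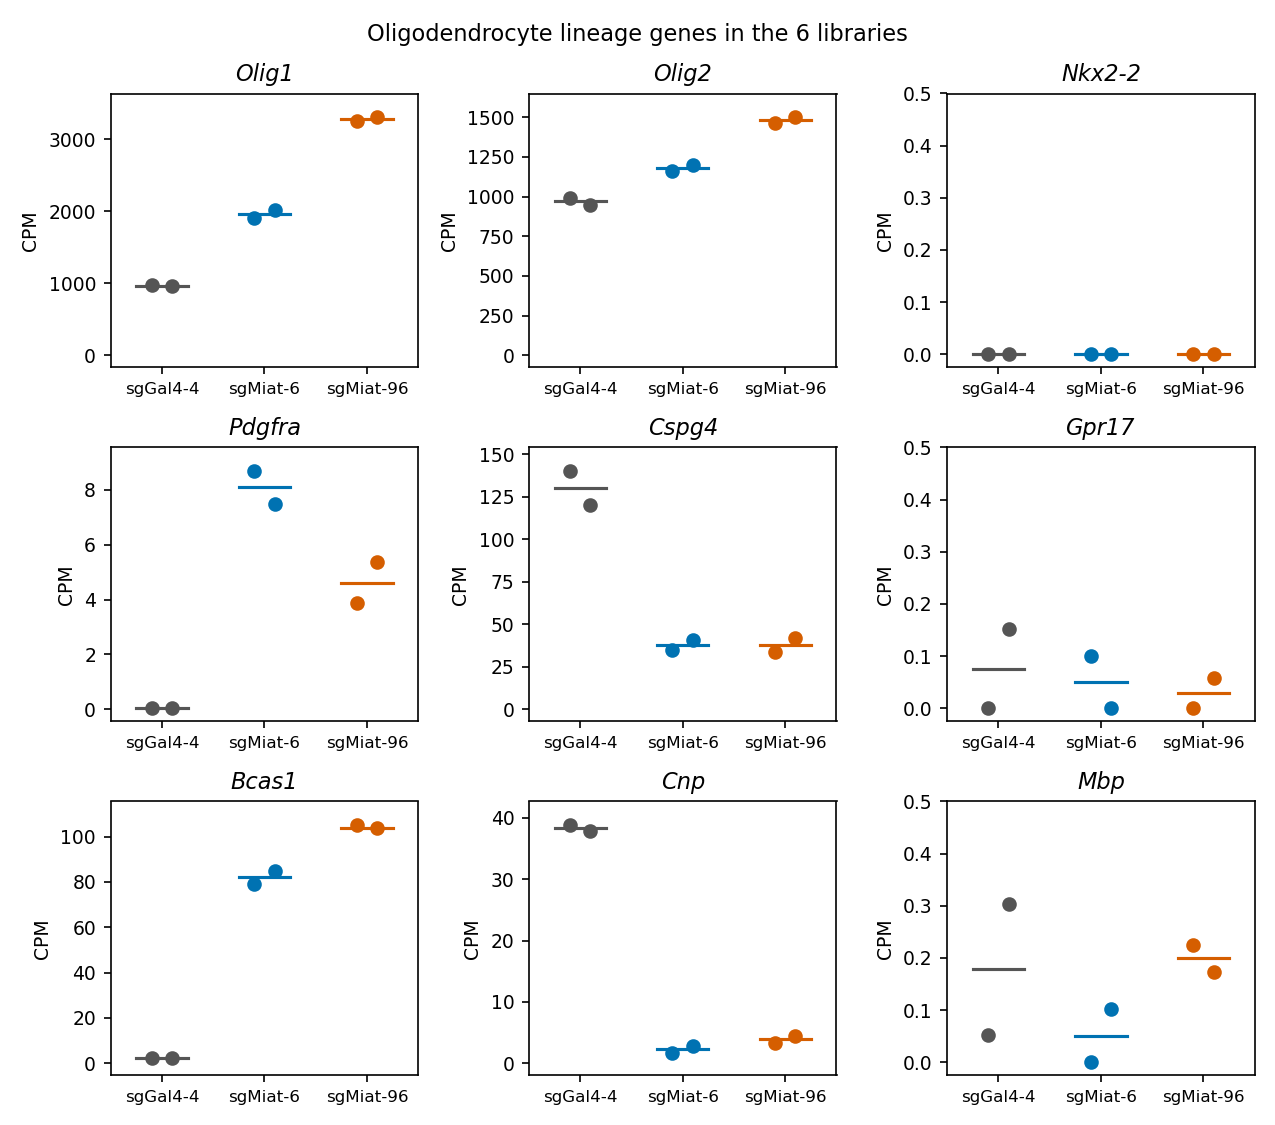
Level of each of the 9 genes in CPM (vertical axis, linear, with its own scale in each panel) in the 6 libraries. Points are single libraries, bars are the mean of the 2 libraries of a guide group, and the panels of Nkx2-2, Gpr17 and Mbp stop at 0.5 CPM. Olig1 went from a mean of 966 CPM in sgGal4-4 to 3277 CPM in sgMiat-96, whereas Cnp went from 38.3 to 3.91 CPM.

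Among the lineage transcription factors, Olig1 showed the clear difference. Olig1 (NM_016968, chromosome 16 from 91269772 to 91271933 on the plus strand of GRCm38) had 970 and 963 CPM in the sgGal4-4 libraries, 1909 and 2015 CPM in the sgMiat-6 libraries and 3251 and 3304 CPM in the sgMiat-96 libraries. The 3 groups were fully separate, with the control lowest and sgMiat-96 highest. Olig1 rose by 1.02 ± 0.10 (SE) on the log2 scale with sgMiat-6, a 2.03-fold rise (adjusted p = 2.45e-06), and by 1.76 ± 0.10 with sgMiat-96, a 3.39-fold rise (adjusted p = 1.5e-08, edgeR). It was also higher with sgMiat-96 than with sgMiat-6 by 0.74 ± 0.10 (adjusted p = 0.000548), and that difference was called under each of 16 alternative settings.

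Olig2 (NM_016967), which lies 41.1 kb from Olig1 on the same strand of chromosome 16 (91225457 to 91228677), moved much less. Its levels were 993 and 946 CPM with sgGal4-4, 1161 and 1196 CPM with sgMiat-6, and 1463 and 1499 CPM with sgMiat-96. The order of the groups was the same as for Olig1, again without overlap. Olig2 rose by 0.61 ± 0.10 on the log2 scale with sgMiat-96 (1.53-fold, adjusted p = 0.000106, edgeR). With sgMiat-6 the difference was 0.28 ± 0.10 (1.22-fold, adjusted p = 0.0271), and this call was lost when sgGal4-4 replicate 1 (adjusted p = 0.139), sgGal4-4 replicate 2 (adjusted p = 0.264) or sgMiat-6 replicate 2 (adjusted p = 0.0609) was left out, with the replicate number as a block (adjusted p = 0.0726) and with scaling by total counts (adjusted p = 0.0586).

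Because both genes rose by different amounts, their balance changed. Per kilobase of transcript, Olig1 stood at 1.12 ± 0.0331 times Olig2 in the control (SD, n = 2), 1.87 ± 0.032 times with sgMiat-6 and 2.48 ± 0.0143 times with sgMiat-96. The single libraries ran from 1.1 to 1.14 in the control and from 1.84 to 2.49 in the Miat libraries. The nearest tested gene beyond Olig1, the interferon receptor gene Ifnar2, lies 100.8 kb away and rose too. It had 13.6 ± 0.888 CPM with sgGal4-4, 22.0 ± 0.875 CPM with sgMiat-6 and 27.1 ± 1.23 CPM with the other Miat guide (SD, n = 2). Its log2 fold change with both guides was 0.84 (adjusted p = 5.61e-05, edgeR). On the other side, 4932438H23Rik, 130.3 kb from Olig2, fell, with a log2 fold change of -2.37 (adjusted p = 0.00304, edgeR). That value rests on 26 counts with sgGal4-4, 3 with sgMiat-6 and 7 with sgMiat-96.

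Nkx2-2 (chromosome 2, 147177546 to 147194243, minus strand) was not detected. Both of its transcript rows had 0 counts in all 6 libraries, which allows up to 3 counts in a library, or between 0.149 and 0.173 CPM. One library listed 1 count beside an FPKM of 0, which was read as 0.

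The surface proteins of precursor cells went in opposite directions. Pdgfra, which encodes the alpha receptor for platelet-derived growth factor (NM_001083316, chromosome 5 from 75152292 to 75198215, plus strand), had 1 count in each sgGal4-4 library, 175 and 147 counts with sgMiat-6, and 69 and 93 counts with sgMiat-96. These counts correspond to 0.0511 ± 0.000601 CPM, 8.09 ± 0.831 CPM and 4.62 ± 1.05 CPM (SD, n = 2). The gene was thus at the edge of detection in the control and at a low but clear level in all 4 Miat libraries. The ratio of counts to the control was 159 with sgMiat-6 (95% counting interval 43.5 to 1315, Clopper-Pearson) and 90.3 with sgMiat-96 (24.6 to 752). The adjusted p was 4.74e-08 and 2.16e-07 in edgeR.

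Pdgfra was lower with sgMiat-96 than with sgMiat-6, by 0.81 ± 0.23 on the log2 scale (adjusted p = 0.017, edgeR). The sgMiat-6 libraries lay at 8.68 and 7.5 CPM and the sgMiat-96 libraries at 3.88 and 5.37 CPM, so the groups did not overlap. This difference was not called without sgMiat-6 replicate 1 (adjusted p = 0.0937) or without sgMiat-96 replicate 1 (adjusted p = 0.146), with the length trend taken out (adjusted p = 0.164), or in DESeq2 (adjusted p = 0.062).

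The nearest tested gene beyond Pdgfra on chromosome 5 is Kit (75574916 to 75656722), 376.7 kb away, which encodes the receptor for stem cell factor and belongs to the same receptor family. It was named after its values were seen. Kit had 4 counts in the sgGal4-4 libraries together, 358 with sgMiat-6 and 222 with sgMiat-96, or 0.102 ± 0.0711, 8.99 ± 1.1 and 6.33 ± 1.00 CPM (SD, n = 2). Its fitted log2 fold change with both guides was 6.12 (adjusted p = 2.86e-08, edgeR). That value rests on 4 control counts, and Kit reached the test only through its level in the Miat libraries. On the other side, Chic2, which lies 107.5 kb from Pdgfra, rose by 0.85 on the log2 scale (adjusted p = 1.35e-05, edgeR), from 41.4 ± 1.03 CPM to 66.6 ± 2.66 and 83.0 ± 8.76 CPM.

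Cspg4, which encodes the NG2 proteoglycan (NM_139001, chromosome 9 from 56865033 to 56899870, plus strand), had 140 and 120 CPM with sgGal4-4, 35.0 and 40.8 CPM with sgMiat-6, and 33.9 and 42.0 CPM with sgMiat-96. Both control libraries lay well above all 4 Miat libraries, and the libraries of the 2 Miat guides overlapped. Cspg4 fell by 1.78 ± 0.14 on the log2 scale with either guide, 3.43-fold lower (adjusted p = 3.49e-07 with sgMiat-6 and adjusted p = 2.42e-07 with sgMiat-96, edgeR). The difference between the Miat guides was 0.00, with a 95% interval from -0.30 to 0.31. The transcript is long (8050 bases). Once the length trend had been removed, Cspg4 fell by 1.40 on the log2 scale with sgMiat-6 and fell by 0.94 with sgMiat-96. In that setting Cspg4 was higher with sgMiat-96 than with sgMiat-6 by 0.46 (adjusted p = 0.0275, edgeR). The nearest tested genes on either side of Cspg4 changed less. Lingo1, 68.6 kb away, had a log2 fold change of -0.44 with both guides (adjusted p = 0.00506, edgeR). Snx33, 17.3 kb away, had a log2 fold change of 0.32 (adjusted p = 0.0255, edgeR).

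The bases just before the start of 4 genes that were tested and have an entry in RefSeq's promoter table (GRCm38.p6) are shown, since they include genes of both directions: Olig2 and Pdgfra rose, Cspg4 and Cnp fell. Of the 9 genes, 5 have an entry, the fifth being Nkx2-2. The 250 bases before each RefSeq start were searched on both strands for the Gli word GACCACCCA, for the E-box word CAGCTG of basic helix-loop-helix factors, for a second E-box word, CATATG, for another E-box word, CACGTG, and for the Sox word ACAAAG, none of which contains another. Stretches are written 5′ to 3′ on the gene's strand up to the first annotated exon, and capitals mark a match.
Olig2, chr16:91225300-91225456, plus strand: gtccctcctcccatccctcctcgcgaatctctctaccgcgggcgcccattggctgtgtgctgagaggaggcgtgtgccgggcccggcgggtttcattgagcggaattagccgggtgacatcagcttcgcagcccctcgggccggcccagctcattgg
Pdgfra, chr5:75152001-75152250, plus strand: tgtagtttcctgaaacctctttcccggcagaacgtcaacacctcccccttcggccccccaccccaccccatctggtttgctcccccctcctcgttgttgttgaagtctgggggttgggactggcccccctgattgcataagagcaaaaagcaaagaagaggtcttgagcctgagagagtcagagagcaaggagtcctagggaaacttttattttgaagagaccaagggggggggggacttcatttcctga
Cspg4, chr9:56864854-56865032, plus strand: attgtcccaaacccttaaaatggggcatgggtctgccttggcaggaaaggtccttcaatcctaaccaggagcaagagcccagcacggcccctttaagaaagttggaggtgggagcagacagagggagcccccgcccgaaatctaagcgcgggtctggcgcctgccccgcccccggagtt
Cnp, chr11:100574689-100574903, plus strand: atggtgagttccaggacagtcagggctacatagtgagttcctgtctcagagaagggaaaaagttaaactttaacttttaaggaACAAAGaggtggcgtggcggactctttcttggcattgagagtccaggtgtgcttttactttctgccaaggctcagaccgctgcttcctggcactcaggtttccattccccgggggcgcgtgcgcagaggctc

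Of these 4 stretches, the Cnp one held 1 of the words, ACAAAG at 167 bases before the start, a word that 16.5% of all 32851 promoters in the table hold in the same window. None of the 5 words was found in the 250 bases before Olig2, Pdgfra or Cspg4. CAGCTG occurs in 13.0% of all promoters, CATATG in 3.46%, CACGTG in 6.02% and GACCACCCA in 0.225%. Nkx2-2, which was not detected, held CACGTG at 173 bases before its RefSeq start. Its searched stretch (147186403 to 147186652) lies inside the gene span given above, so that start is an internal one of the span.

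Of the later stages of the lineage, Bcas1 rose and Cnp fell. Bcas1, which encodes a protein of oligodendrocytes that are starting to myelinate (NM_029815, chromosome 2 from 170346991 to 170427845, minus strand), had 2.32 and 2.33 CPM in the sgGal4-4 libraries, 79.3 and 85.0 CPM with sgMiat-6, and 105 and 104 CPM with sgMiat-96. The 3 groups did not overlap, and every Miat library was far above the control. The log2 fold change was 5.14 ± 0.15 with sgMiat-6 (35.3-fold, adjusted p = 4.44e-11) and 5.49 ± 0.15 with sgMiat-96 (44.8-fold, adjusted p = 3.28e-11, edgeR). Only 220 of 13220 tested genes had a higher log2 fold change with both guides than Bcas1. That number was 910 for Olig1 and 3742 for Olig2. For Pdgfra it was 147, but the fitted value of Pdgfra rests on 2 control counts and depends on the prior count, so this place is not firm.

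Neither neighbour of Bcas1 passed the test for both guides together, but each did with sgMiat-96. Pfdn4, 68.6 kb away, had 29.1 ± 0.162 CPM in the control and 31.1 ± 3.69 and 37.3 ± 0.675 CPM with the Miat guides (SD, n = 2). Its adjusted p in edgeR was 0.089 for both guides, 0.545 with sgMiat-6 and 0.0243 with sgMiat-96. Zfp217, 198.9 kb away, had 31.8 ± 2.14, 30.5 ± 3.04 and 22.7 ± 1.39 CPM, with a log2 fold change of -0.27 for both guides (adjusted p = 0.05). It fell by 0.49 with sgMiat-96 (adjusted p = 0.00596, edgeR) and had an adjusted p of 0.728 with sgMiat-6.

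Cnp, which encodes a phosphodiesterase of myelin (NM_001146318, chromosome 11 from 100574904 to 100591729, plus strand), had 754 and 747 counts in the control against 35 and 54 with sgMiat-6 and 59 and 78 with sgMiat-96. In CPM these were 38.8 and 37.8, then 1.74 and 2.76, then 3.32 and 4.50. Both controls lay far above all Miat libraries, and sgMiat-6 was the lowest group. Cnp fell by 4.09 ± 0.22 on the log2 scale with sgMiat-6, 17.1-fold (adjusted p = 8.45e-09). It fell by 3.29 ± 0.21 with sgMiat-96, 9.80-fold (adjusted p = 3.34e-08, edgeR). With both guides, 261 of the 13220 tested genes had a lower log2 fold change than Cnp, and 864 had a lower one than Cspg4. Of the nearest tested genes, Nkiras2, 27.5 kb away, rose by 0.48 on the log2 scale (adjusted p = 0.00123, edgeR). Ttc25, 2.3 kb away, had a log2 fold change of -1.02 (adjusted p = 0.181, edgeR). It had 28 counts with sgGal4-4, 8 with sgMiat-6 and 21 with sgMiat-96. Of the sgMiat-96 counts, 19 came from replicate 2, so the size of its change is not firm.

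Mbp, the gene of myelin basic protein, and Gpr17, a receptor gene of committed precursors, were close to 0 in every group and did not pass the filter for testing. The counts of Mbp were 1 and 6 with sgGal4-4, 0 and 2 with sgMiat-6, and 4 and 3 with sgMiat-96. Gpr17 had 0 and 3 counts, 2 and 0 counts, and 0 and 1 count in the same order. For both genes the control overlapped each Miat group, at levels of at most 0.304 CPM. The 2 Miat groups did not overlap for Mbp, at 0 and 0.102 CPM with sgMiat-6 against 0.225 and 0.173 CPM with sgMiat-96. Tested without the filter on low counts, Mbp had an adjusted p of 0.60 and Gpr17 an adjusted p of 0.697 for both guides against the control (edgeR). Between the Miat guides Mbp had an adjusted p of 0.407 (edgeR). A difference between groups was not detectable at this depth.

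**Figure D2:**
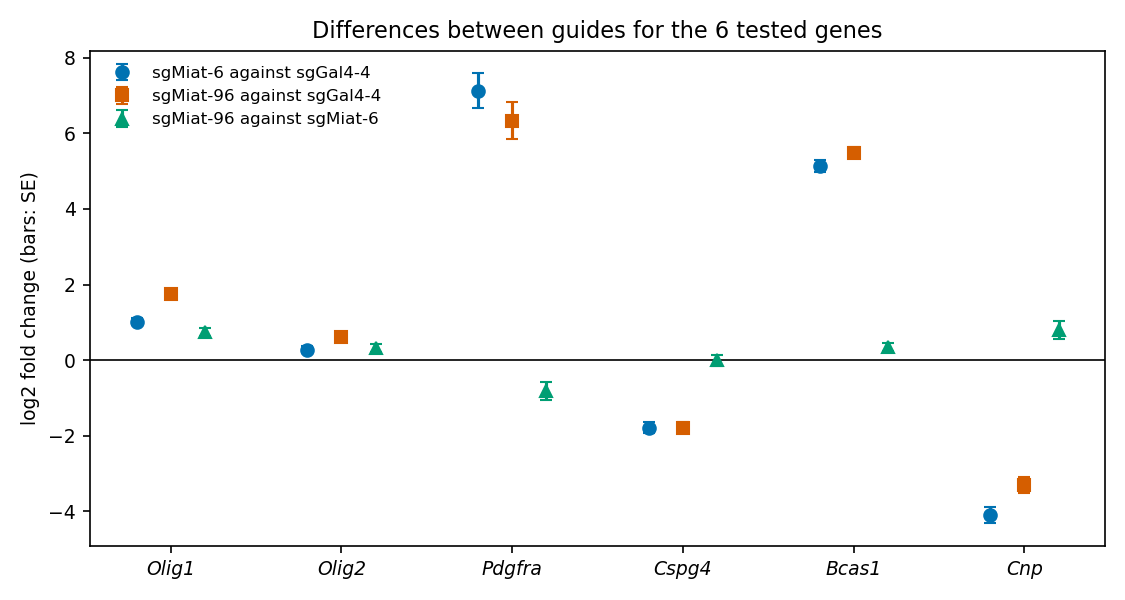
Log2 fold change (vertical axis) of the 6 tested genes in 3 comparisons, with bars for the SE from edgeR. Circles and squares, which share the control libraries, show Olig1, Olig2, Pdgfra and Bcas1 above 0 and Cspg4 and Cnp below 0 with either Miat guide, and triangles show the differences between the Miat guides, from -0.81 for Pdgfra to 0.80 for Cnp. The points of Pdgfra are fitted values, and its circle and square rest on 2 control counts.

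The 2 Miat guides gave the same directions for the 6 tested genes but not the same sizes. Both comparisons with the control share the sgGal4-4 libraries, so the guides were compared directly. sgMiat-6 against sgGal4-4 called 53% of all tested genes and sgMiat-96 against sgGal4-4 called 68.2%, and each of them called the 6 genes, 4 higher and 2 lower. Of all tested genes, 26.9% were called higher and 26.1% lower with sgMiat-6, and 34% higher and 34.2% lower with sgMiat-96. Between sgMiat-96 and sgMiat-6, 36.7% of all tested genes were called, 17.8% higher and 18.8% lower. Of the 6 genes, Olig1, Olig2, Bcas1 and Cnp were higher with sgMiat-96, Pdgfra was lower, and Cspg4 was not called. None of these differences reached 2-fold.

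Apart from that of Olig1, the calls between the Miat guides depended on single libraries. Bcas1 differed by 0.35 ± 0.11 (adjusted p = 0.025), Cnp by 0.80 ± 0.25 (adjusted p = 0.0256) and Olig2 by 0.33 ± 0.10 on the log2 scale (adjusted p = 0.0196, edgeR). Without sgMiat-6 replicate 1 only Olig1 was called between the guides, and the same held without sgMiat-96 replicate 1. The adjusted p was then 0.0918 and 0.0998 for Bcas1, 0.199 and 0.0559 for Cnp and 0.0649 and 0.0706 for Olig2. Without sgMiat-96 replicate 2 it was 0.0603 for Bcas1, 0.175 for Cnp and 0.0574 for Olig2. Leaving out sgGal4-4 replicate 1 or 2, which only enter through the shared spread, gave 0.0716 and 0.0721 for Bcas1 and 0.0641 and 0.0646 for Olig2. The sizes moved little for these 2 genes when single libraries were left out, from 0.29 to 0.38 for Bcas1 and from 0.30 to 0.34 for Olig2, and more for Cnp, from 0.50 to 1.15.

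Per kilobase of transcript, the order of levels also changed. In the control it ran from Olig1 (445 ± 2.29 CPM per kilobase, SD, n = 2) and Olig2 (398 ± 13.8) to Cspg4 (16.2 ± 1.79), Cnp (15.0 ± 0.276), Bcas1 (0.752 ± 0.00284), Mbp (0.0702 ± 0.0705), Gpr17 (0.0146 ± 0.0207) and Pdgfra (0.00778 ± 9.15e-05). Cspg4 and Cnp overlapped there, and Mbp, Gpr17 and Pdgfra could not be put in order at such counts. With sgMiat-6 the third place went to Bcas1 (26.6 ± 1.30), followed by Cspg4 (4.71 ± 0.516), Pdgfra (1.23 ± 0.126) and Cnp (0.881 ± 0.283). With sgMiat-96 it was again Bcas1 (33.8 ± 0.127), then Cspg4 (4.71 ± 0.708), Cnp (1.53 ± 0.329) and Pdgfra (0.704 ± 0.160). Olig1 and Olig2 stayed first and second, at 904 ± 34.6 and 484 ± 10.2 with sgMiat-6 and at 1510 ± 17.0 and 608 ± 10.3 with sgMiat-96.

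**Figure D3:**
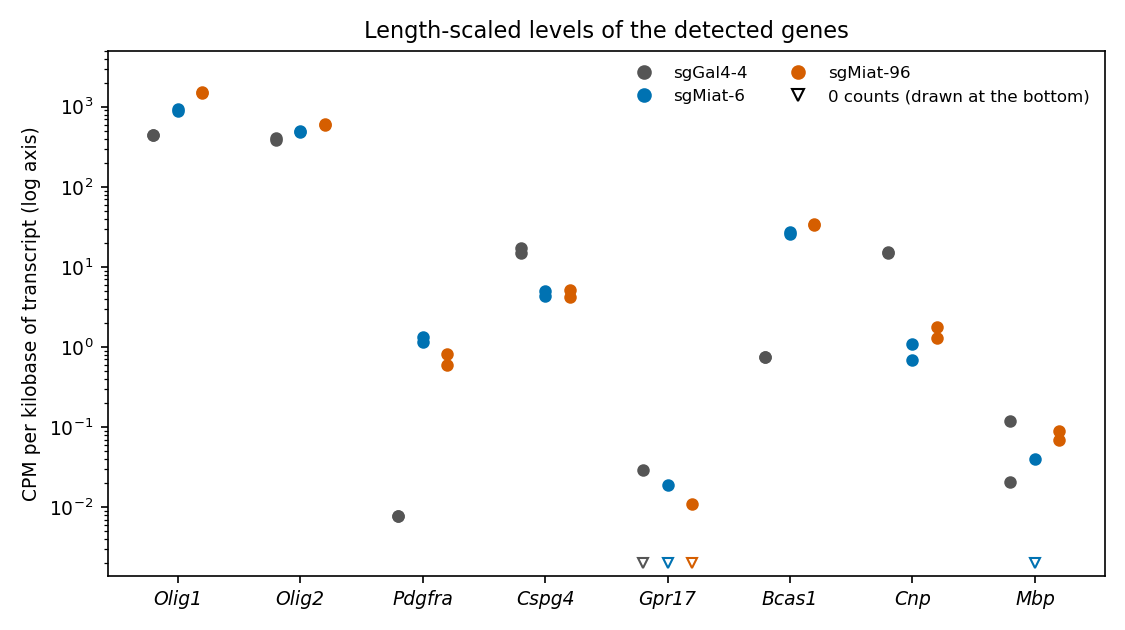
Level per kilobase of transcript (vertical axis, log scale, CPM per kilobase) of the 8 genes with any count, with 2 points per guide group for its libraries and open triangles at the bottom for libraries with 0 counts. Olig1 and Olig2 lie above the other genes in every library, and Bcas1 moves from below Cnp in the control to above it in the Miat libraries.

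Among all 17679 symbols with a count, Olig1 ranked 156 from the top per kilobase in the control, 96 with sgMiat-6 and 83 with sgMiat-96. Olig2 ranked 172, 176 and 184. Bcas1 went from rank 11833 to ranks 3311 and 2851, and Cnp from rank 5124 to ranks 11555 and 10710. The 9 genes together held between 0.221% and 0.226% of counts in the control libraries, between 0.329% and 0.339% with sgMiat-6 and between 0.440% and 0.465% with sgMiat-96, most of which were from Olig1 and Olig2.

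Other genes of the lineage were taken from 4 lists, whose counts are to be read beside the 33.1% of all tested genes called higher and the 33.4% called lower. Some genes of the lists reached the test only through their level in the Miat libraries, such as Hes5 and Pcdh15 with 0 control counts and Pdgfd with 3. Of 20 other transcription factors of the lineage, 15 were tested, and 7 rose and 4 fell with both Miat guides, with a median log2 fold change of 0.07 against 0 for all tested genes. Id2 and Id4, inhibitors of basic helix-loop-helix factors, rose: Id2 from 40.9 ± 2.26 CPM to 163 ± 7.60 and 209 ± 19.1 CPM, and Id4 from 0.539 ± 0.404 to 3.79 ± 0.598 and 3.53 ± 0.0658 CPM (SD, n = 2; adjusted p = 2.27e-09 and adjusted p = 2.99e-05, edgeR). Hes5, a Notch target gene, had 0 control counts against 106 in the 4 Miat libraries, at least 18.5-fold higher when the control group is given 3 counts in all. Sox8, a relative of Sox10, rose from 153 ± 4.18 to 212 ± 10.6 and 265 ± 14.5 CPM (adjusted p = 4.09e-05).

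Factors of the later steps were at unlike levels, and all but Zfp488 are named here after their values were seen. Tcf7l2, which acts in differentiating oligodendrocytes, had 28.5 ± 0.316, 23.5 ± 2.40 and 27.6 ± 1.42 CPM (adjusted p = 0.229, edgeR). Zeb2 had 57.3 ± 3.02, 45.3 ± 13.3 and 30.2 ± 2.21 CPM. It was called lower for both guides together (adjusted p = 0.00158) and with sgMiat-96 (adjusted p = 0.000328) but not with sgMiat-6 (adjusted p = 0.104, edgeR). Sox10, which is required for the maturation of oligodendrocytes, had 4 counts in the sgGal4-4 libraries together, 0 with sgMiat-6 and 1 with sgMiat-96. Myrf, the main activator of myelin genes, had 2, 34 and 22 counts, a ratio of 14.6 for both guides against the control (95% counting interval 3.87 to 124), at levels below 1.1 CPM in every library. Zfp488, another factor of the lineage, was at 0 counts in all libraries.

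Of 26 further precursor genes, including the platelet-derived growth factors, 20 were tested, and 10 rose and 4 fell, with a median log2 fold change of 0.39. The proteoglycan genes went apart here as well. Vcan, the versican gene, fell from 336 ± 23.9 CPM to 0.979 ± 0.158 and 0.597 ± 0.110 CPM (SD, n = 2), a log2 fold change of -8.76 ± 0.13 (adjusted p = 6.76e-14, edgeR), while Cspg5, the neuroglycan C gene, rose from 1.61 ± 0.127 to 121 ± 6.39 and 126 ± 2.10 CPM (log2 fold change of 6.26 ± 0.15, adjusted p = 6.19e-12). Lhfpl3 rose from 0.484 ± 0.247 to 16.9 ± 2.86 and 4.21 ± 0.485 CPM, and Rlbp1, which encodes a retinaldehyde-binding protein, from 1.76 ± 0.201 to 14.7 ± 1.55 and 14.4 ± 1.15 CPM (adjusted p = 1.01e-07 and adjusted p = 2.87e-08, edgeR). Pdgfa, which encodes the main ligand of Pdgfra and was picked after its values were seen, rose from 15.3 ± 2.42 to 41.3 ± 1.29 and 35.0 ± 4.07 CPM (log2 fold change of 1.31 ± 0.13, adjusted p = 2.17e-06, edgeR). Neu4 had 0 counts in all libraries.

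Of 16 genes of committed and premyelinating cells, 9 were tested, and 0 rose and 3 fell, with a median log2 fold change of -0.16. Nfasc, the neurofascin gene, fell from 11.3 ± 0.422 CPM to 2.04 ± 0.136 and 2.00 ± 0.198 CPM (SD, n = 2; adjusted p = 8.4e-08, edgeR). The kinase gene Fyn fell from 612 ± 15.5 to 423 ± 17.6 and 424 ± 49.0 CPM (adjusted p = 0.000199). Itpr2, an inositol trisphosphate receptor gene, had 59.7 ± 5.36, 59.1 ± 4.73 and 29.6 ± 5.02 CPM, and was called for both guides together (adjusted p = 0.00173) and with sgMiat-96 (adjusted p = 3.16e-05) but not with sgMiat-6 (adjusted p = 0.935). Gpr37 was at 0 counts in all libraries.

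Of 24 myelin genes, only 9 were tested, and 6, among them Mag and Cldn11, had 0 counts in all 6 libraries. With both guides 4 rose and 3 fell, with a median log2 fold change of 0.17. The 3 named genes that rose are known from many cell types: Trf (transferrin) went from 50.1 ± 1.76 CPM to 380 ± 10.2 and 655 ± 1.59 CPM, Gsn (gelsolin) from 22.4 ± 1.60 to 63.7 ± 2.65 and 84.3 ± 10.8 CPM, and Qdpr (dihydropteridine reductase) from 70.6 ± 1.92 to 125 ± 13.5 and 162 ± 15.4 CPM (SD, n = 2; adjusted p = 3.36e-11, 6.61e-08 and 2.74e-06, edgeR). Aspa, the aspartoacylase gene, had 104 control counts and 0 in the Miat libraries, at least 66.3-fold lower.

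**Figure D4:**
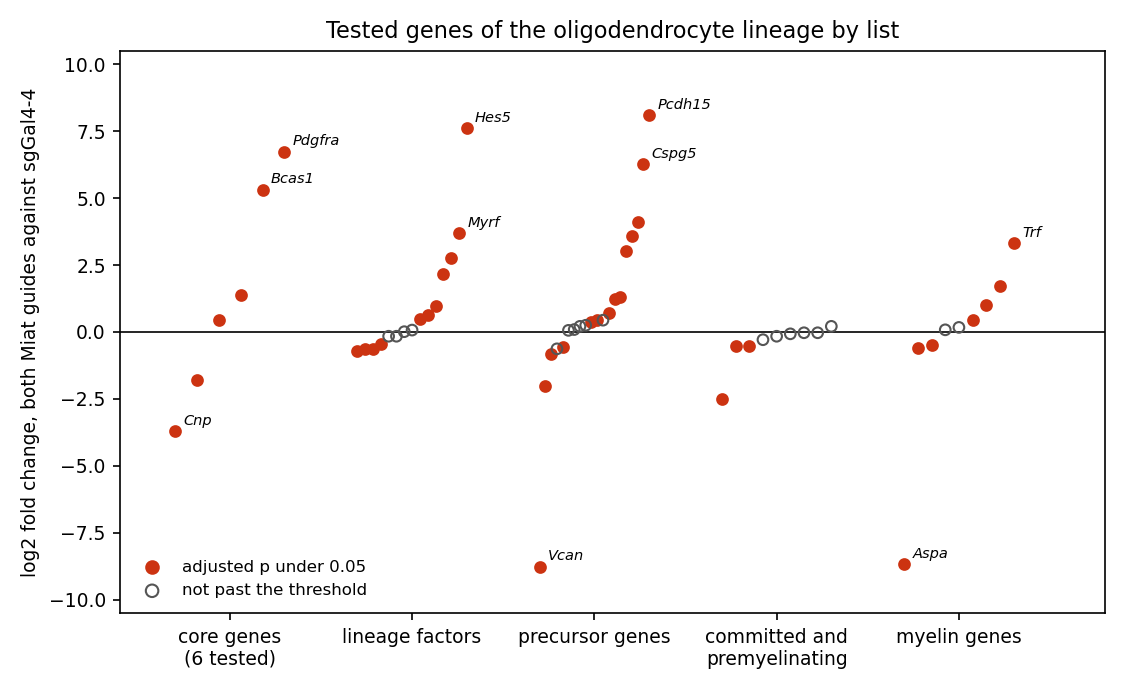
Log2 fold change of both Miat guides against sgGal4-4 (vertical axis) for each tested gene of the core set and of 4 wider lists, sorted within each list. Filled points passed an adjusted p of 0.05 in edgeR and open points did not, and each list but the committed and premyelinating one holds called genes on both sides of 0. Fitted values of Hes5, Pcdh15 and Aspa rest on 0 counts on one side and depend on the prior count.

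Markers of other cell types that share some of these genes were read from the same libraries. Of 11 pericyte and fibroblast markers, 3 were tested, 1 higher and 2 lower, and their summed level was 9.53 to 11.1 CPM in the control, 1.07 to 1.79 CPM with sgMiat-6 and 1.97 to 2.54 CPM with sgMiat-96. Most of the control sum was Col1a1, a collagen gene of fibroblasts, which fell from 8.67 ± 1.51 CPM to 0.524 ± 0.381 and 0.603 ± 0.535 CPM (SD, n = 2; adjusted p = 7.07e-07, edgeR). Another fibroblast collagen gene, Col3a1, rose, with 3 counts in the control libraries together, 25 with sgMiat-6 and 36 with sgMiat-96 (adjusted p = 0.00239, edgeR). It reached the test only through its level in the Miat libraries. Its order of the Miat guides was the reverse of that of Pdgfra, though not called between them (adjusted p = 0.346, edgeR). The part of Col3a1-expressing cells in the Pdgfra result was not tested. Kcnj8 and Abcc9 were at 0 counts throughout and Pdgfrb had at most 0.0253 CPM on average in a group. The summed level was lower where Cspg4, a pericyte gene as well, was lower, and its part in that fall was not tested. Of 10 astrocyte markers, 9 were tested, and 1 was higher and 8 lower, with a summed level of 3767 to 3894 CPM in the control against 1096 to 1154 and 1149 to 1209 CPM. Their part in the fall of Cspg4 and Cnp was not tested. The 9 microglia and blood cell markers summed to 2.43 to 2.83 CPM in the control and to at most 0.693 CPM in the Miat libraries, with Cx3cr1, C1qa and Tyrobp at 0, and the 6 endothelial markers summed to between 6.63 and 13.8 CPM in all libraries, with Cldn5 at 0. In bulk RNA, fewer cells of a type and less RNA per cell cannot be told apart.

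Of 12 granule neuron lineage markers, 8 were tested, 4 higher and 4 lower. Their summed level was 224 to 247 CPM in the control, 212 to 253 CPM with sgMiat-6 and 202 to 221 CPM with sgMiat-96, so sgMiat-96 lay below the control. The Hedgehog pathway genes Gli1, Ptch1 and Gli2 fell, by log2 fold changes of -2.88, -2.38 and -2.21, as did Mycn (-2.40), while Zic1 (1.09), Zic2 (1.32), Neurod1 (1.71) and Pax6 (0.36) rose. Of 9 neural stem cell markers, 7 were tested, 2 higher and 3 lower. Their sums were 3680 to 3796 CPM in the control, 5502 to 6104 CPM with sgMiat-6 and 6032 to 6497 CPM with sgMiat-96. The 2 that rose were abundant: Vim went from 1496 ± 35.4 to 2837 ± 174 and 3230 ± 109 CPM, and Fabp7 from 644 ± 1.25 to 1107 ± 63.4 and 1362 ± 112 CPM. The 3 that fell were Sox9, Msi1 and Hes1. Olig2, which neural stem cells also make, was among the genes that rose, and the part of stem cells in that rise was not tested.

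The genes most like each of the 6 tested genes were found by the distance between log2 CPM profiles over the 6 libraries, each centred on its own mean, among 10865 named genes with at least 2 CPM on average. For Olig1 these were Sac3d1 (distance 0.107) and Spns1 (distance 0.149), and Sac3d1 rose from 21.7 ± 0.179 to 44.1 ± 2.71 and 73.3 ± 4.19 CPM (SD, n = 2). For Olig2, Tpst2 was at a distance of 0.0461. The Pdgfra pattern was nearest to that of Rasef (0.422), which had 2 control counts against 428 with sgMiat-6 and 190 with sgMiat-96, and of Kif16b (0.553), which had 0, 182 and 84 counts. Bcas1 was nearest to Ccdc122 (0.257) and Car10 (0.374), both with 0 control counts. Ccdc122 had 3.57 and 4.90 CPM with sgMiat-6 and sgMiat-96, and Car10 had 3.87 and 5.27 CPM. Distances to genes with few or no control counts, such as these, Rasef and Kif16b, depend on the prior count. Cspg4 was nearest to B4galnt4 (0.205) and Tnks1bp1 (0.219), and Cnp to Ankrd29 (0.479) and Gng11 (0.539), which fell from 23.2 ± 0.810 to 1.59 ± 0.637 and 2.79 ± 0.270 CPM.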

How the data were processed

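The submitters' processing notes name STAR and the build GRCm38 (mm10). No aligner version, read counter or annotation release was given in the sources used here. RNA was extracted with a column kit and made into mRNA libraries, per the labels' protocols, which do not say whether strand was kept. The deposited files list a whole-number count, an FPKM and a TPM for each transcript, per the file headers. The deposited TPM was not used. The deposited FPKM served to recover transcript lengths, assuming that it is the count over length and library total, and zeros: sgMiat-96 replicate 2 lists 11223 rows with an FPKM of 0 at 1 count, and these were set to 0. Isoform rows share reads, so the row with the highest total was kept for each of 24063 symbols. Of the 9 genes, 5 have several rows.

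Low genes were removed with filterByExpr (groups given) and libraries scaled by TMM. Counts were tested with edgeR 4.0.16 (R 4.3.3) in a model of 3 groups over 6 libraries (3 residual degrees of freedom), with Benjamini-Hochberg adjustment over 13220 genes. The biological coefficient of variation was 0.0986. The SE is the log2 fold change over the square root of F, with a prior count of 0.125. Counts of 0 allow up to 3 counts, and intervals and floors cover counting error only. Replicates differed by more than sampling noise (chi-square per gene of 4.12 to 19.1). The script was tested on simulated data. Alternatives were DESeq2 1.42.0, other scaling, filters, rows and zeros, a replicate block, removal of the trend over transcript length (loess, span 0.3) and leaving out each library.

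The members and lists were chosen with earlier results of these data known. All 9 genes were named. Of each wider list the text names up to 4 called genes with the smallest adjusted p and up to 2 genes at 0 counts, and exceptions are marked. Neighbours are the nearest tested genes in GENCODE M21 on GRCm38, a rule added after the data were seen. The 2 nearest genes in pattern used a prior count of 2; a gene that the rule would name is not reported here.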

Additional observations from a re-analysis of the deposited data

Results flagged for a closer look

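The effect of a guide against sgGal4-4 differed between the 2 Miat guides, by the test of sgMiat-96 against sgMiat-6 in edgeR, for 5 of the 6 tested genes. The rise with sgMiat-96 exceeded that with sgMiat-6 by 0.74 on the log2 scale for Olig1 (adjusted p = 0.000548), by 0.33 for Olig2 (adjusted p = 0.0196) and by 0.35 for Bcas1 (adjusted p = 0.025). For Cnp the difference was 0.80 (adjusted p = 0.0256), a smaller fall with sgMiat-96 (-3.29) than with sgMiat-6 (-4.09). For Pdgfra the difference was -0.81 (adjusted p = 0.017), a smaller rise with sgMiat-96. Each gene's 2 libraries of one Miat guide lay on one side of the 2 of the other. Such separation is no test with 2 libraries a group, and its share over all tested genes is not given here. The share of all tested genes called in this comparison was 36.7%. Over 16 alternatives Olig1 was called in 16, Pdgfra in 12, Cnp in 11, and Olig2 and Bcas1 in 8 each.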

How the results depend on the processing

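Of 470 alternative values for the comparisons with sgGal4-4, 465 kept their direction and their side of the threshold (or a count within 1.5 times); the other 5 were Olig2 with sgMiat-6, given in the report. Of 160 values between the Miat guides, 106 did. Between the Miat guides 5 genes were called, 4 higher and 1 lower. With total counts only there were 2, of which 1 was higher; with only the groups compared there were 2, of which 1 was higher; with the replicate block there were 3, of which 2 were higher. The lower call was lost in DESeq2 (0 lower) and with the length trend removed (0 lower). Without single libraries the number called ran from 1 to 5, higher from 1 to 4 and lower from 0 to 1, and all genes called from 1124 to 5740 against 4850. The lowest came without sgMiat-96 replicate 1. Cspg4, not called between the guides at 0.00, changed sign to -0.15 with total counts only, to 0.00 without the filter on low counts, and without single libraries ranged from -0.16 to 0.15. Nkx2-2 had a count in 1 library when counts were taken as listed. Scaling by total counts put the median of all genes at -0.13 for both guides against the control, with 3583 genes higher and 5196 lower against 4379 and 4415, and all fold changes are relative to TMM. The cause of these shifts was not tested. The replicate numbers are shared by the labels but nothing ties equal numbers to one source, and deviations of equal numbers had correlations of 0.06, -0.18 and -0.37 between groups, so the block was not used; with it Olig2 against the control with sgMiat-6 and Olig2 and Bcas1 between the guides lost their calls (adjusted p = 0.0726, 0.0562 and 0.0579). With 2 libraries a group, a left-out library leaves 1, which is assumed to vary like the other groups. Mbp, Gpr17 and Nkx2-2 are limited by depth, at 3 counts or 0.149 to 0.173 CPM per library.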
